A study of Mus musculus with 8 samples.

Results

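MHC class I heavy chain genes and B2m, the gene of their shared light chain, were followed in the endothelium of mouse melanomas that had received agonistic CD40 mAb or an isotype control. The group holds 10 genes, chosen by name from the 20057 genes measured: B2m, H2-K1, H2-D1, H2-Q4, H2-Q6, H2-Q7, H2-T22, H2-T23, H2-M3 and Cd1d1. The choice was made with earlier results of these data known. All 10 had values in every library and all passed the limit for testing, a larger group mean above 10 normalized reads. B16-F10 mouse melanoma cells, 250000 per mouse, were grown under the skin of male C57BL/6 mice 8 weeks old without any engineered allele. In both groups 30 µg of antibody was injected beside the tumor on day 13 and on day 16, and tumors were taken, by the labels, 1 day after the last dose. The study's methods name collections at 1 and at 4 days and correct for harvest day. The labels give every tumor the same 1 day but no harvest date of single tumors. The part of harvest day in any difference was therefore not tested. The groups received agonistic CD40 mAb (FGK4.5; mice 5N, 6L, 6R and 10N) or rat IgG2a isotype control (2A3; mice 5L, 7N, 8N and 9L). From each tumor about 100000 live CD45- CD31+ cells were sorted and 10 ng of their RNA was made into 1 library, so that n = 4 tumors per group. A group without any antibody was not analysed here.

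MHC class I molecules carry short peptides from inside the cell to its surface, where CD8 T cells read them. Each consists of a heavy chain and β2-microglobulin, and without the light chain most heavy chains do not reach the surface. H2-K1 and H2-D1 encode the classical heavy chains of C57BL/6 mice, whereas the Q, T and M genes of the same complex encode non-classical chains with narrower ligands or receptors. Endothelial cells express class I, and IFNγ and type I IFN are known to raise it, in part through IRF1 and the coactivator NLRC5.

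Total reads per library ranged from 2971689 to 64938728, and 1 read counted for 0.118 normalized reads in the deepest and 2.44 in the shallowest, so that the shallow isotype control libraries measured the weakest members least precisely. Isotype control 5L had the fewest reads and the lowest value of 9 of the 10 members, and the fold changes of members are given with and without it. The summed level of 7 melanoma markers was 93734 normalized reads in 5L and between 35745 and 60850 in the other 7 libraries. All 12 endothelial markers were measured, summing to between 48599 and 70297 normalized reads with agonistic CD40 mAb and between 42490 (5L) and 58847 with isotype control. None of the 12 passed the threshold used below. The sorted cells therefore carried the labelled endothelial markers together with RNA of melanoma cells and of fibroblasts, whose 6 markers summed to between 88497 and 249098 normalized reads. In such bulk RNA, a change in the share of a cell type and a change in RNA per cell cannot be told apart.

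Of the 10 genes, 8 lie in the H2 complex on chromosome 17, B2m lies on chromosome 2 and Cd1d1 on chromosome 3 (GENCODE M21, mm10). H2-K1 stands at one end (positions 33996017 to 34000347), followed by H2-D1 (35262730 to 35267499), H2-Q4 (35379617 to 35385290), H2-Q6 (35424850 to 35430055) and H2-Q7 (35439155 to 35443773). H2-T23 (36029773 to 36032855), H2-T22 (36037128 to 36042747) and H2-M3 (37270220 to 37274484) follow. B2m spans positions 122147686 to 122153083 of its chromosome and Cd1d1 spans 86995834 to 86999441. H2-K1, H2-T22, H2-T23 and Cd1d1 are on the minus strand and the others on the plus strand.

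Upstream sequences are shown for 6 members, to let the short elements they share be seen. The light chain, a classical chain and a gene each of the other kinds were taken, H2-Q6 was left out as nearly the same as H2-Q7, and H2-D1 and H2-T23 because their stretches overlap annotated transcripts. They come from the RefSeq promoter table for GRCm38.p6, the same assembly as mm10, in which 9 of the 10 members were matched. The stretches are chr2:122147514-122147643 (plus strand) for B2m, chr17:34000348-34000471 (minus strand) for H2-K1, chr17:35379430-35379559 (plus) for H2-Q4, chr17:35439008-35439137 (plus) for H2-Q7, chr17:36042838-36042967 (minus) for H2-T22 and chr17:37270099-37270219 (plus) for H2-M3. Each is written 5′ to 3′ on the strand of its gene, in lower case. Capitals mark the motif matches on the gene strand and the IRF repeat on either strand, and other matches on the opposite strand, such as a Y-like one in H2-M3, stay in lower case.
B2m: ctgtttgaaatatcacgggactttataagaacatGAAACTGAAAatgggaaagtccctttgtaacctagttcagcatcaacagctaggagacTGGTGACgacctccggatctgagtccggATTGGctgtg
H2-K1: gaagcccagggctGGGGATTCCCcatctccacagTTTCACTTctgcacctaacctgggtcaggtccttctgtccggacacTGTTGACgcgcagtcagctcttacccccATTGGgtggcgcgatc
H2-Q4: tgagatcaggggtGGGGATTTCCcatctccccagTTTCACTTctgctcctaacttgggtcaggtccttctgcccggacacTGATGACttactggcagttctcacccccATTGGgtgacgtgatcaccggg
H2-Q7: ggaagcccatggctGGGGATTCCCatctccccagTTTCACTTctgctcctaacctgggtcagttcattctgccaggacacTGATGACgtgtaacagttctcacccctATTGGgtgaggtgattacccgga
H2-T22: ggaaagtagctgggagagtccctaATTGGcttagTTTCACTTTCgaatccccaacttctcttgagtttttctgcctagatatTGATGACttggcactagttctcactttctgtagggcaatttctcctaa
H2-M3: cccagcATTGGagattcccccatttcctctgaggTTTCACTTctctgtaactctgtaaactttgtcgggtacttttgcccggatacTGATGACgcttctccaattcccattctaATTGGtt

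The letters searched, on both strands of 300 bases around the RefSeq start, were TTTCACTT for the core of an IFN-stimulated response element (ISRE), GAAANNGAAA for a repeat that IRF proteins bind, and GGGGATTNCC for a κB-like site. TGNTGAC stood for the X2 box and ATTGG for the Y box of the module that NLRC5 works through, and TTCNNNGAA for an IFNγ-activated site. These motifs were written after the sequences had been read, and the ISRE-like core and the IRF repeat can overlap, as they do in H2-T22. The ISRE-like core was found in 7 of 9 members (H2-K1, H2-D1, H2-Q4, H2-Q6, H2-Q7, H2-T22 and H2-M3) and in 1.6% of all 32851 promoters. B2m, H2-T22 and H2-T23 held the IRF repeat, which 3.44% of promoters hold. The κB-like letters stood in H2-K1, H2-D1, H2-Q4, H2-Q6 and H2-Q7, against 0.268% of promoters. All 9 held the X2-like and the Y-like letters, which are in 14.1% and 37.4% of promoters. In H2-K1 the κB-like match began 111 bases before the start, the ISRE-like core 90, the X2-like match 44 and the Y-like match 16. The core, the X2-like and the Y-like match stood in this order on the gene strand in 9 promoter entries (0.0274%), of 8 gene symbols, 7 of them members and the other Mexis. In H2-T22 the Y-like match of this order began 88 bases before the start, beyond the stretch shown. H2-M3 alone of the 9 members searched held the letters of the IFNγ-activated site, found in 8.3% of promoters. A match describes the letters only and is no evidence of binding in these cells.

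**Figure D1:**
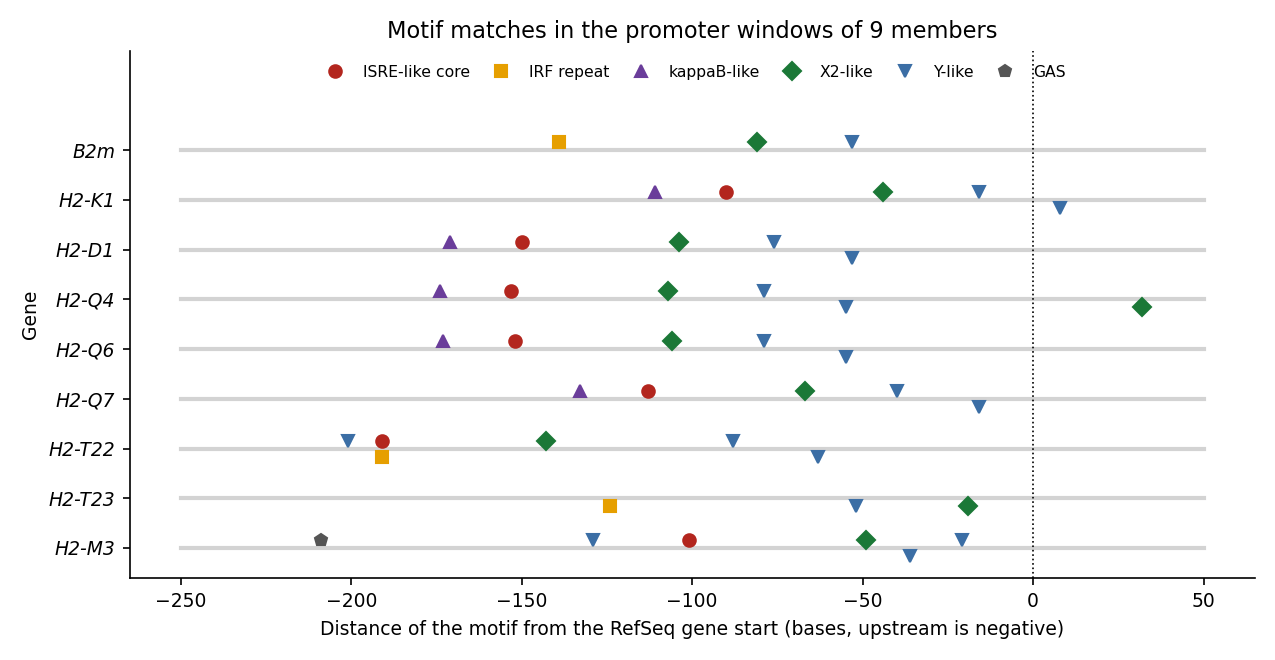
Motif matches in the RefSeq promoter windows of 9 members. The horizontal axis is the distance from the RefSeq gene start in bases, and a marker above or below a gene's line is a match on or against the gene strand. In H2-K1, H2-D1, H2-Q4, H2-Q6 and H2-Q7 the κB-like, ISRE-like, X2-like and Y-like matches follow each other in the same order.

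To determine whether class I expression differed between the treatments, each member was compared over the 8 libraries with limma on log2(normalized reads + 1). A gene was called where the ratio of group means was at least 1.5 and the unadjusted p at most 0.05. Of the 10 members, 9 were called higher with agonistic CD40 mAb and none lower, and Cd1d1 was not called. Over all 12969 genes tested, 166 (1.28%) were called higher and 31 (0.239%) lower. The median log2 fold change was 1.12 over the members and 0.0046 over all genes tested. Because the members were chosen with earlier results of these data known, these comparisons describe the members and are not a test of the group. After Benjamini-Hochberg adjustment over all genes no member passed an adjusted p of 0.05 in limma, where 0.0154% of all genes did so in this direction (2 genes). By DESeq2 on whole reads 6 members passed, where 63 of the 12965 genes with an adjusted p (0.486%) were higher at this limit, and by edgeR none. The lowest adjusted p of a member in limma was 0.283, for H2-K1. The same 9 members were called in each fit that left out 1 library. Without 5L, 1.24% of the genes tested were called higher and 0.945% lower.

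**Figure D2:**
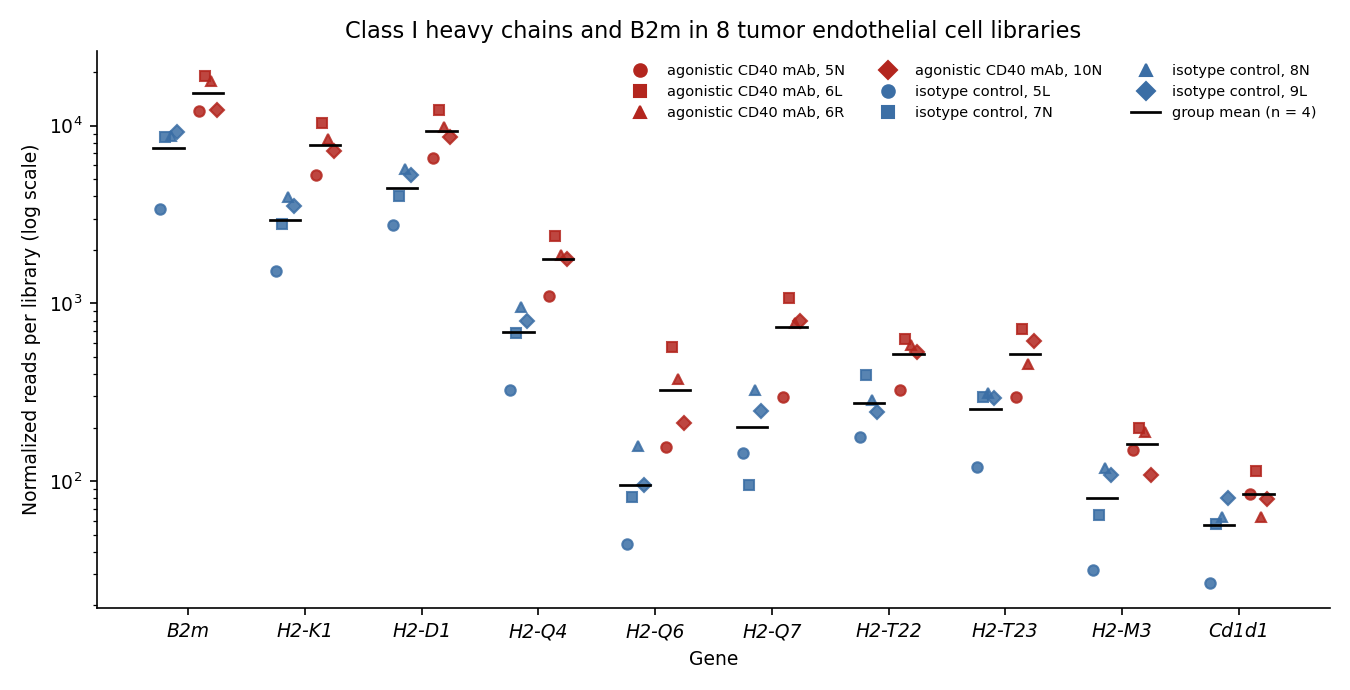
Normalized reads of the 10 members in each of the 8 libraries, on a log scale. Each marker is 1 library (mouse), blue for isotype control and red for agonistic CD40 mAb, and the black bar is the group mean (n = 4). The groups do not overlap for B2m, H2-K1, H2-D1 and H2-Q4, and 5L is the lowest library for every gene but H2-Q7.

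B2m, the light chain, had the highest level of the group. With agonistic CD40 mAb it reached 12151, 18999, 17925 and 12167 normalized reads in 5N, 6L, 6R and 10N, and with isotype control 3385, 8615, 8788 and 9155 in 5L, 7N, 8N and 9L. All 4 treated libraries lay above all 4 controls, with 3 controls close together and 5L far below them. The group means were 15310 ± 3665 and 7486 ± 2743 (SD, n = 4), a ratio of 2.05. This is a log2 fold change of 1.11 (standard error 0.31; unadjusted p = 0.00477 and adjusted p = 0.773 in limma). Without 5L the log2 fold change was 0.76 and the ratio 1.73, and B2m was still called.

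H2-K1 and H2-D1 encode the classical heavy chains, which present peptides to CD8 T cells. H2-K1 stood at 5290, 10330, 8361 and 7167 normalized reads in 5N, 6L, 6R and 10N, and at 1518, 2810, 3967 and 3542 in 5L, 7N, 8N and 9L. The lowest treated library, 5N, exceeded the highest control, 8N. The mean was 7787 ± 2115 against 2959 ± 1073 normalized reads (SD, n = 4), and the log2 fold change was 1.44 (standard error 0.29, limma unadjusted p = 5.03e-04, adjusted p = 0.283). For H2-D1 the treated libraries held 6536, 12249, 9766 and 8624 normalized reads and the controls 2759, 4011, 5670 and 5305, in the same order of mice. These groups did not overlap either, and the ratio of the means was 2.10. The log2 fold change of H2-D1 was 1.08 (standard error 0.25, limma unadjusted p = 0.00121, adjusted p = 0.365). Leaving out 5L gave log2 fold changes of 1.15 for H2-K1 and 0.87 for H2-D1. Of their 50-base transcript windows, 9.63% for H2-K1 and 12.8% for H2-D1 also occur in transcripts of other genes, so that part of their reads could be counted for a relative.

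H2-Q4, H2-Q6 and H2-Q7 belong to the Q region, whose Q6 to Q9 genes encode the Qa-2 antigens. H2-Q4 reached 1099, 2383, 1861 and 1765 normalized reads with agonistic CD40 mAb and 327, 683, 957 and 794 in the controls. As for the classical chains, 5N was the lowest treated library and still lay above the highest control. The log2 fold change was 1.41 (standard error 0.32, limma unadjusted p = 0.00112, adjusted p = 0.362) and the ratio 2.57, against 1.09 and 2.19 without 5L. H2-Q6 was weaker, with 155, 565, 374 and 213 normalized reads in the treated libraries and 44.0, 80.9, 158 and 95.6 in the controls. Its groups overlapped, since 5N fell just under 8N. H2-Q7 gave 299, 1076, 777 and 797 normalized reads with agonistic CD40 mAb and 144, 95.2, 324 and 248 in the controls. Here too only 5N lay below 8N, and 7N rather than 5L was the lowest control. The ratios of 3.45 for H2-Q6 and 3.64 for H2-Q7 were the largest among the members. Their log2 fold changes were 1.74 (standard error 0.44, limma unadjusted p = 0.00230) and 1.87 (standard error 0.43, unadjusted p = 0.00130), and 1.43 and 1.76 without 5L.

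Of the windows of H2-Q4, H2-Q6 and H2-Q7, 36.4%, 35.0% and 26.5% were found in other genes on either strand. Single values of H2-Q6 and H2-Q7 are uncertain for that reason. For H2-Q4 the largest partner was Gm11131 (15.3%), which overlaps it on the opposite strand, and H2-Q6 came next (9.68%). A library without strand information cannot separate H2-Q4 from Gm11131. Summing H2-Q6, H2-Q7, H2-Q8 and H2-Q9 removes only the division of reads among these 4. The windows that H2-Q7 shares with H2-Q10 (14.03%) and H2-Q5 (8.74%) and H2-Q6 with H2-Q4 (12.3%) lie outside the sum, and H2-Q8 and H2-Q9 were not matched in GENCODE M21. The sum was 851, 2742, 1825 and 1786 normalized reads with agonistic CD40 mAb and 200.4, 345, 746 and 559 in the controls. The summed groups did not overlap. Their log2 fold change was 2.01 (standard error 0.42, limma unadjusted p = 5.86e-04, adjusted p = 0.284).

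H2-T22, H2-T23 and H2-M3 encode non-classical chains with specialised ligands. H2-T22 protein is bound by a subset of γδ T cells. It measured 326, 630, 587 and 533 normalized reads in the treated libraries and 176, 395, 287 and 245 in the controls. The overlap came from 5N, below 7N, and the log2 fold change was 0.93 (standard error 0.26, limma unadjusted p = 0.00502). H2-T23 encodes Qa-1, which shows signal peptides of other class I chains to the CD94/NKG2A receptor of NK cells and T cells. Its values were 298, 717, 457 and 612 normalized reads with agonistic CD40 mAb and 120, 297, 313 and 293 in the controls. In H2-T23, 5N lay below 8N and level with 7N, while 5L stood far under the other controls. The log2 fold change was 1.04 (standard error 0.34, limma unadjusted p = 0.0110). H2-M3 protein presents peptides with a formylated first residue, as bacteria and mitochondria make them. H2-M3 gave 150, 198, 190 and 109 normalized reads in treated and 31.8, 64.2, 118 and 108 in control libraries. Its overlap was that of 10N with 8N, and the log2 fold change was 1.12 (standard error 0.38, limma unadjusted p = 0.0138).

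Without 5L these 3 genes had log2 fold changes of 0.73, 0.71 and 0.74 and were all called. H2-T22 shares 53.5% of its windows with other genes, most of them with H2-T10 (31.2%). A930015D03Rik, which overlaps H2-T22 on the opposite strand, holds 26.5% of them. For H2-T23 the shared part was 14.5% and for H2-M3 0.576%. H2-M3 was therefore the heavy chain member whose reads were least open to such sharing, and B2m had no shared window. Of H2-M3, 5L held 13 reads and 7N held 27, so that its low control values carry a wide counting error.

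Cd1d1 encodes the CD1d heavy chain, which presents lipids to NKT cells. It stood at 84.4, 114, 62.6 and 79.0 normalized reads with agonistic CD40 mAb and at 26.9, 57.1, 62.6 and 80.8 with isotype control. The groups overlapped widely: 6R was level with 8N, and 9L exceeded 10N. The mean was 85.1 ± 21.6 against 56.9 ± 22.4 normalized reads (SD, n = 4). Its log2 fold change of 0.64 had a 95% interval from -0.09 to 1.37 (limma unadjusted p = 0.0795). The ratio of the means was 1.496 with all libraries and 1.27 without 5L, in which Cd1d1 had 11 reads. Only without 9L was Cd1d1 called, at a log2 fold change of 0.84 (limma unadjusted p = 0.0337).

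**Figure D3:**
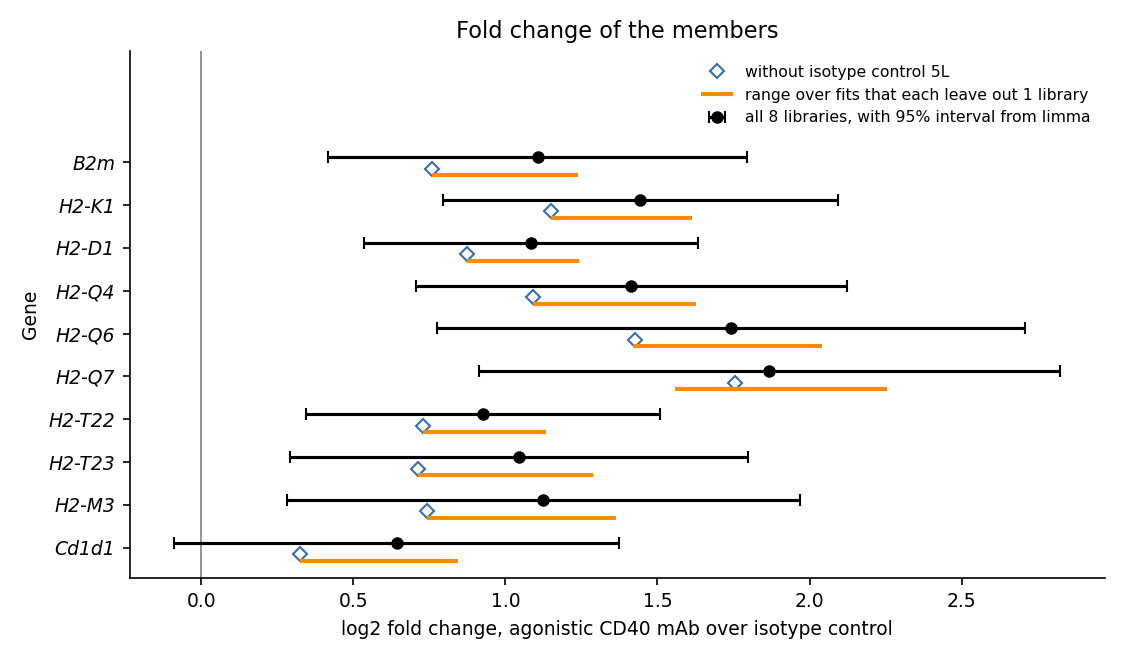
log2 fold change of each member, agonistic CD40 mAb over isotype control. Black points and bars are the limma estimate and its 95% interval over 8 libraries, open diamonds the estimate without isotype control 5L, and orange bars the range over 8 fits that each leave out 1 library. The interval of Cd1d1 alone reaches below 0, and for 8 members, B2m among them, leaving out 5L gives the lowest estimate.

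Each member was tested singly as well, by exact permutation (two-sided) over the 70 assignments of the libraries. B2m, H2-K1, H2-D1 and H2-Q4 gave p = 0.0286, the smallest value that an exact test of 4 against 4 libraries can reach. Without 5L these 4 groups still did not overlap, but only B2m gave an exact permutation p under 0.05, and H2-K1, H2-D1 and H2-Q4 gave 0.0571. For H2-Q6, H2-Q7, H2-T22, H2-T23 and H2-M3 with all libraries the exact permutation p was 0.0571 and for Cd1d1 0.143. The treated group lay wholly above the controls in 4 of the 10 members and in 141 (1.09%) of all genes tested. In the 5 called members whose groups overlapped, the overlap came from 5N in 4 and from 10N in H2-M3. 5N had the lowest treated value of 8 members and the lowest summed heavy chain level of its group.

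To compare levels between members, normalized reads were divided by exon length in kilobases. With isotype control the order was B2m (8704 ± 3190 normalized reads per kilobase, SD, n = 4), H2-D1 (1966 ± 587), H2-K1 (1710 ± 620), H2-Q4 (385 ± 149), H2-T23 (174 ± 61.9), H2-T22 (153 ± 50.8), H2-Q7 (132 ± 66.9), H2-M3 (56.0 ± 27.9), H2-Q6 (45.4 ± 22.8) and Cd1d1 (29.2 ± 11.5). Only B2m from H2-D1 and H2-K1 from H2-Q4 were separated beyond the spread of the 4 controls. All other neighbours in this order overlapped, although H2-Q4 exceeded H2-T23, H2-Q7 exceeded H2-M3 and H2-Q6 exceeded Cd1d1 within each of the 8 libraries. With agonistic CD40 mAb the first 3 places were held by B2m (17803 ± 4262), H2-K1 (4501 ± 1222) and H2-D1 (4120 ± 1055). H2-K1 lay above H2-D1 in all 4 treated libraries and below it in all 4 controls, a comparison singled out after the values were seen and not tested. H2-Q7 (480 ± 210) moved from the seventh place to the fifth, past H2-T23 (354 ± 124) and H2-T22 (287 ± 74.5), with spreads that overlap. Lengths are those of annotated coding transcripts, not of the transcripts these cells use.

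The 9 heavy chains summed to 14237, 28261, 22436 and 19900 normalized reads in the treated libraries and 5147, 8493, 11856 and 10712 in the controls. H2-K1 and H2-D1 made up between 79.4% and 83.1% of this sum in every library of either group. The sum had a log2 fold change of 1.25 (standard error 0.28, limma unadjusted p = 9.96e-04). All members took 0.472% ± 0.114 of all normalized reads with agonistic CD40 mAb and 0.211% ± 0.0671 in the controls (SD, n = 4), without overlap between the groups.

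To determine whether heavy chains moved by more or less than their light chain, each was divided by B2m of the same library, which removes the scaling of libraries. None of the 9 ratios differed between the groups at an exact permutation p of 0.05. The ratio of H2-K1 to B2m was higher by 0.34 on the log2 scale (two-sided exact permutation p = 0.0857) and that of H2-Q4 by 0.31 (exact permutation p = 0.171). H2-Q6 and H2-Q7 had the widest shifts, 0.64 and 0.76, with exact permutation p of 0.143 and 0.2. H2-D1, H2-T23 and H2-M3 kept differences of -0.02, -0.06 and 0.02, and H2-T22 of -0.18. The Cd1d1 ratio differed by -0.46 (exact permutation p = 0.0571), with 6R far under the rest. Adjusted over the 9 ratios, no p was below 0.36. With 4 libraries a group these p do not show that the ratios were equal.

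**Figure D4:**
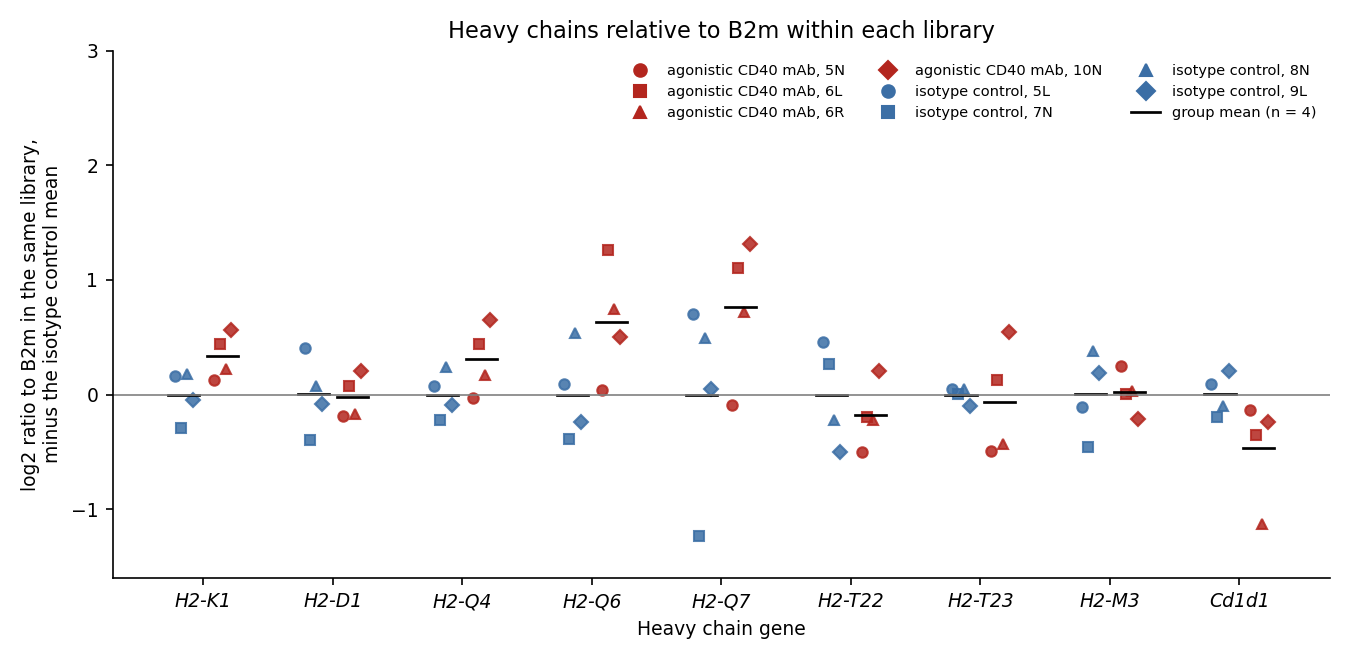
log2 ratio of each heavy chain to B2m in the same library, minus the mean of the 4 isotype control libraries for that gene. Markers are single libraries, blue for isotype control and red for agonistic CD40 mAb, and black bars are group means (n = 4). The groups overlap for all 9 heavy chains. The treated mean of Cd1d1 lies 0.46 lower, and the spread is widest for H2-Q7.

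Markers of other cells were compared in the same libraries. The CD45 gene Ptprc, which the sort selects against, had 9.99 ± 8.46 normalized reads in the treated and 2.52 ± 2.04 in the control libraries (SD, n = 4). It was under the limit for testing, so its difference was not tested. The 8 leukocyte markers summed to between 205 and 369 against between 158 and 364 normalized reads, with 5 tested and none called. Of 10 macrophage markers 1 was called, Mrc1, higher with agonistic CD40 mAb, and their sums ranged from 393 to 606 against 252 to 583. The 6 dendritic cell markers summed to between 268 and 399 against 210 to 342, mostly Zbtb46 and Clec9a, with 2 tested and none called. T and NK cell markers summed to at most 8.42 and B cell markers to at most 7.82 normalized reads in any library, with Cd3d at 0 throughout. None of the melanoma, fibroblast or mural cell markers was called. All 5 red blood cell markers were called lower, with sums of 276 to 1267 against 852 to 8760 normalized reads. The part of these cells in the class I differences was not tested.

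The other class I heavy chain genes of the family were listed as well, 20 of 21 with values and 10 tested. Of these, H2-Q5, H2-Q8, H2-Q9, H2-T9 and H2-T10 were called higher and none lower, with a median log2 fold change of 1.18. They are not independent of the members, since H2-T22 shares 31.2% of its windows with H2-T10 and H2-Q7 shares 8.74% with H2-Q5, and H2-Q5 and H2-T10 are annotated as polymorphic pseudogenes. The groups of all 5 did not overlap, as in 1.09% of all genes tested. H2-Q9 had 359, 831, 588 and 467 normalized reads in the treated libraries and 2.44, 150, 229 and 194 in the controls, where 2.44 is 1 read in 5L. With 5L the log2 fold change was 2.95 (standard error 1.11; unadjusted p = 0.0227 in limma) and the ratio 3.90, and without it they were 1.503 and 2.94. Its call was lost only without 6L (limma unadjusted p = 0.0537). H2-Q8 gave 39.0, 271, 85.4 and 308 against 9.78, 19.0, 35.4 and 21.9 normalized reads, a log2 fold change of 2.67 (standard error 0.62, limma unadjusted p = 0.00137). H2-Q5, H2-T9 and H2-T10 had ratios of 3.40, 2.04 and 2.19. H2-T9 was the strongest of the list, at 651 ± 127 against 320 ± 143 normalized reads (SD, n = 4). H2-T24 and H2-M9 were not called, with ratios of 1.28 and 0.553, but H2-M9 was called lower without 5L (ratio 0.438). The 10 genes under the limit included H2-Q1, H2-T3 and Cd1d2, and H2-M10.1 had 0 reads in all libraries.

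Class I-like genes code for proteins of related fold that serve other tasks, and 10 of 12 were tested. None was called higher, and H60b, a ligand of the NK cell receptor NKG2D, was called lower at 9.13 ± 4.17 against 20.6 ± 9.13 normalized reads (limma unadjusted p = 0.0352). Its ratio was 0.444 with 5L and 0.437 without it, where p was 0.0516 in limma and the call was lost. It was also lost without 5N, 6L, 7N or 8N, at ratios from 0.356 to 0.559 over the 8 fits that leave out 1 library. The median log2 fold change of the list was 0.13. Procr, the endothelial protein C receptor, stood at 724 ± 44.0 against 659 ± 175 normalized reads. Fcgrt, the neonatal Fc receptor that also pairs with B2m, had a ratio of 0.824, and Hfe, which pairs with B2m in iron control, one of 1.24. Neither of these was called, nor was Raet1e, with a ratio of 0.771. Of the 10 tested genes of this list, 6 had a positive log2 fold change.

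Of 13 genes that supply and load class I peptides, 8 were called higher and none lower, with a median log2 fold change of 0.69. The immunoproteasome subunits Psmb8, Psmb9 and Psmb10, which cut proteins into peptides, had ratios of 1.96, 2.62 and 1.62. Psmb9 reached 197, 356, 383 and 323 normalized reads in the treated libraries and 63.5, 90.4, 186 and 140 in the controls. Only Psmb8, Psmb9 and Erap1 had groups that did not overlap, 3 of the 13 against 1.09% of all genes tested. The peptide transporter genes Tap1 and Tap2 had log2 fold changes of 1.38 (standard error 0.34, limma unadjusted p = 0.00184) and 1.04 (standard error 0.33, unadjusted p = 0.00901). Tapbp and Tapbpl, which edit the bound peptide, rose 1.68-fold and 1.57-fold, and Erap1, which trims peptides, rose 1.57-fold. Without 5L Psmb10, Tapbpl and Erap1 were no longer called, at ratios of 1.495, 1.47 and 1.41, which left 5 of the 13. For Erap1 this was by the limit on the ratio alone (limma unadjusted p = 0.00107), and in the other 7 fits that leave out 1 library it was called. Psmb10 and Tapbpl lost their calls in 5 of the 8 such fits, without 6L, 6R, 10N, 5L or 7N, with ratios from 1.40 to 1.97 and from 1.44 to 1.78 over the 8. The general chaperones of folding Calr, Canx and Pdia3 had ratios of 1.01, 0.942 and 0.957, and were not called. Calr, the strongest of the 3, stood at 8636 ± 1028 against 8569 ± 646 normalized reads (SD, n = 4).

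Of 17 genes that transcribe class I, 4 were called higher and none lower, with a median log2 fold change of 0.16. Nlrc5, the class I coactivator, had 486, 717, 657 and 670 normalized reads with agonistic CD40 mAb and 78.2, 207, 316 and 267 in the controls. Its treated libraries all lay above the controls, with a log2 fold change of 1.70 (standard error 0.36, limma unadjusted p = 7.22e-04) that was 1.27 without 5L. Irf1 and Irf8, transcription factors of the IFN response, had log2 fold changes of 1.03 (standard error 0.25, limma unadjusted p = 0.00188) and 0.76 (standard error 0.20, unadjusted p = 0.00303). These 3 genes were called without 5L as well, and their groups did not overlap. Rfx5, Creb1 and Atf1, which bind the X boxes, and Nfkb1 had ratios of 0.933, 1.04, 0.859 and 1.09 and were not called.

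The 7 IFN receptor and Jak kinase genes gave no call, and of the 8 genes of their list only Socs1, a feedback inhibitor of Jak signaling, was called higher. It was low, at 23.7 ± 15.01 against 8.35 ± 5.58 normalized reads (limma unadjusted p = 0.0318), with a ratio of 2.84 that was 2.30 and not called without 5L (limma unadjusted p = 0.0713). Its call was likewise lost in 5 of the 8 fits that leave out 1 library, without the same libraries as for Psmb10, at ratios from 1.98 to 3.60. Jak1, Jak2, Ifnar1 and Ifngr2 had ratios of 1.01, 1.07, 0.95 and 0.96. All calls in these lists are to be read beside the 1.28% of all genes called higher and the 0.239% called lower, and the lists were written with earlier results of these libraries known.

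**Figure D5:**
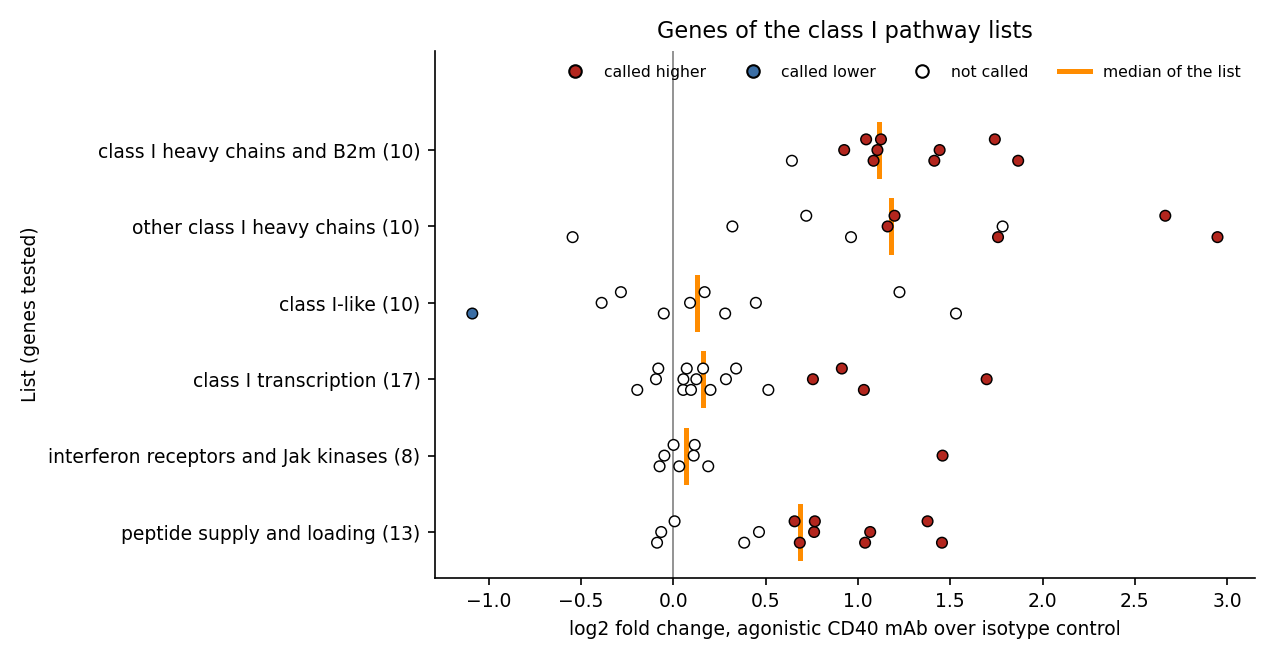
log2 fold change, agonistic CD40 mAb over isotype control, of every tested gene of the members and of 5 related lists. Filled red points were called higher, filled blue points lower and open points were not called, and the orange line is the median of the list. The medians are 1.12 for the members, 1.18 for the other heavy chains and 0.69 for peptide supply and loading, against 0.13, 0.16 and 0.07 for the other 3 lists.

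The genes outside the class I lists whose log2 values were most like the mean of the members over the 8 libraries were Tgm2 (Pearson r = 0.996), Pla2g16 (0.990), H2-DMb1 (0.983), Apol10b (0.982) and Neurl3 (0.979). The 8 points include both treatments, so r also reflects the difference between the groups. Without 5L the first 2 were the same, and AW112010, Ccrl2 and Ccl5 took the next places with r of 0.976, 0.974 and 0.974. Tgm2, which encodes a transglutaminase, had 1842 ± 299 against 1146 ± 236 normalized reads, and without 5L its ratio of 1.47 was under the limit. It was called in 6 of the 8 fits that leave out 1 library, and not without 5L or 6L. H2-DMb1, a subunit of the chaperone that loads class II molecules, had a ratio of 3.15. Of the members themselves, H2-K1, H2-D1 and H2-Q4 followed the mean most closely, each with r = 0.997, and Cd1d1 least, with r = 0.837. Each member is part of this mean, so its r is raised by itself and cannot be set beside those of outside genes.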

How the data were processed

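RNA of sorted tumor endothelial cells from 8 tumors was analyzed, with 1 library per tumor and 4 per treatment. The deposited values are a signal, normalized reads per gene: the authors used TopHat2 for alignment to mm10, Partek Genomics Suite (6.6) for gene assignment and DESeq2 for size factor scaling. A harvest day correction, flooring or trimming was not visible in them. With no harvest date per tumor in the labels, no p accounts for harvest day. Of the values, 99.9% were whole multiples of 1 read within a tolerance of 0.1 reads, which gave the reads and the depth, from 2971689 to 64938728 per library. Intervals from reads cover counting error only.

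Genes with a larger group mean above 10 were tested with limma (3.58.1, R 4.3.3) on log2(value + 1), with a variance trend and treatment as the only term, with Benjamini-Hochberg adjustment over 12969 genes. The script was tested on simulated data. Fold changes refer to log2(value + 1) and ratios to unlogged means. Exact permutation tests were two-sided. All 10 members were named, and from each list every called gene, the 3 strongest and the 2 with the smallest ratio, plus the 5 genes most correlated with the members; 1 gene that meets this rule is not reported here. Alternatives were edgeR (4.0.16) and DESeq2 (1.42.0) on whole reads, other pseudocounts, filters, scalings and limma settings, and leaving out each library. Positions are from GENCODE M21 and promoters from RefSeq. Members and lists were chosen with earlier results of these data known.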

Additional observations from a re-analysis of the deposited data

Results flagged for a closer look

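In 2 members a library stood far from the others of its group. In the isotype control group, B2m was at 11.73 on the log2(normalized reads + 1) scale in 5L, a gap of 0.939 of the whole range of the group. H2-T23 was at 6.92 on this scale in 5L, a gap of 0.931 of the range. Of 38 groups of 4 libraries examined these were the only 2 past Dixon's 95% critical value, and chance passes about 1 group in 20. Library 5L had the fewest reads (2971689) and the highest summed melanoma markers, 93734 normalized reads. Whether these bear on the low values was not tested.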

How the results depend on the processing

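The same 9 members were called higher under all 19 alternatives, and Cd1d1 joined them only without isotype control replicate 4 (9L), which gave 10. Their log2 fold changes ranged from 0.59 for H2-M3 with library quality weights to 2.25 for H2-Q7 without agonistic CD40 mAb replicate 1 (5N). An adjusted p under 0.05 was reached by 6 members (B2m, H2-K1, H2-D1, H2-Q4, H2-Q6 and H2-Q7) in DESeq2 on whole reads, where 0.486% of all genes were higher at this limit, and by none in edgeR, in limma or in its other settings, where at an unadjusted limma p of at most 0.05 there were 9. The number of members at an exact permutation p of at most 0.05 was 4, and from 1 to 7 when 1 library was left out: 1 without 5L, 2 without 7N or 6L, and 7 without 5N. With 4 against 3 libraries even groups that do not overlap can give an exact permutation p of 0.0571, so this count does not measure separation: the number of members whose groups did not overlap was 4 without 5L, 5 without 7N, 4 without 6L and 8 without 5N. Of the 9 ratios to B2m none passed, but Cd1d1 did with a pseudocount of 10 (1 ratio, exact permutation p = 0.0286) and without 5N, so that leaving out 1 library gave 0 to 1. The 18 genes of the pathway lists called higher ranged from 14 to 21. No paired analysis was possible because the labels number mice, not replicates: the replicate numbers used here follow accession order, and the groups share only the digit of 5N and 5L. Depth limited the weakest members most, with 11 to 46 reads of Cd1d1 in 5L, 7N and 8N.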
